A study of Mus musculus with 18 samples.

Results

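The 10 genes described here are those that goblet cells of the gut are known by: Muc2, Tff3, Fcgbp, Clca1, Zg16, Retnlb, Spink4, Agr2, Atoh1 and Spdef. They were chosen by symbol, out of 19938 genes that the array platform names. Of the 10, 9 had exactly 1 probe set of their own on the array, and all 9 passed the filter on dim genes. Fcgbp lies only in probe sets that the platform table shares with other genes, so it has no value here. RNA was measured on 18 Affymetrix arrays in 6 groups of 3 mouse samples: male intestinal tumours labelled Stat3-/-, male tumours labelled Stat3fl/fl, female tumours labelled Stat3-/-, female tumours labelled Stat3fl/fl, intestinal epithelial cells (IEC) labelled Stat3-/-, and IEC labelled Stat3fl/fl. Per the series text, the Stat3-/- mice carried floxed Stat3 alleles and a Cre recombinase under the Villin promoter, which is active in gut epithelium, so the deletion is limited to epithelial cells and any other cell of a tumour keeps Stat3. The tumour-bearing mice of both genotypes carried the APCmin mutation (APCmin/+), which activates Wnt signalling and gives tumours mainly in the small intestine. The sample descriptions instead name azoxymethane and dextran sulfate colorectal tumours for all samples, IEC included. The gut segment of each tumour is therefore not settled by the labels, which also give no age, no sex or Apc genotype for the IEC, and no statement that the samples came from separate animals. The p-values below then cover only the variation among these samples, and that may be technical.

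Goblet cells are the mucus-secreting cells of the intestinal epithelium. They arise from crypt progenitors that escape Notch signalling and switch on the transcription factor Atoh1, and the factor Spdef then drives their terminal maturation. The mature cell packs the gel-forming mucin Muc2 into large granules with the small trefoil peptide Tff3, the mucin-linked protein Fcgbp, the metalloprotease Clca1 (called Gob-5 or Clca3 in older mouse work) and the lectin-like Zg16, which binds Gram-positive bacteria. Agr2 is a disulphide isomerase of the endoplasmic reticulum needed to make Muc2. Retnlb, or RELM-beta, is a secreted protein of goblet cells that is induced by bacteria and by the type 2 cytokines of worm infection, and Spink4 is a secreted peptide of the Kazal inhibitor family. Stat3 carries signals of cytokines such as interleukin 6, 11 and 22 into the nucleus.

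Values are the log2 expression values that were deposited, so a difference of 1 is a change by a factor of 2 on the array's scale. A gene was called changed when its adjusted p in limma, over the 17316 genes tested, was below 0.05. Stat3 itself was lower on every Stat3-/- array than on every Stat3fl/fl array, with means of 8.03 against 10.11 in male tumours, 8.29 against 10.15 in female tumours and 7.87 against 9.83 in IEC. Whether its probe set lies in the deleted exons is not given in the sources used here. Of the 9 measured genes, 8 were above the array's 25th percentile on all 18 arrays. Retnlb was at or below it on 5 arrays, all of them Stat3-/-: 2 of 3 male tumours, 2 of 3 female tumours and 1 of 3 IEC samples. Retnlb values near 4 therefore lie at the dim end of the arrays, where expression cannot be told from background.

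A pair of tumour arrays stood apart from the rest, and both were Stat3fl/fl: replicate 9 among the males and replicate 15 among the females. Hoxd13, a homeobox gene of the hind gut, had values of 8.25 and 9.10 in them, against 4.82 to 5.59 in the other 10 tumours. Gata4, a transcription factor of the upper small intestine, had 6.92 and 6.84 there, against 8.86 to 9.86 in the others. The colonocyte enzyme gene Car1 had 10.90 and 10.24, against 8.40 in replicate 16 of the female Stat3-/- tumours and 4.36 to 5.05 in the remaining tumours. For 6 of the 9 goblet cell genes (Muc2, Tff3, Agr2, Spink4, Atoh1 and Spdef) both arrays lay below all of the other 10 tumours, which holds for 6.23% of all genes tested. Clca1, Zg16 and Retnlb did not show this order. For the 9 genes, differences over both sexes between genotypes, and between Stat3fl/fl tumours and IEC, are therefore given with and without this pair. Differences by sex, differences of effects and the counts and medians of gene lists include the pair unless stated.

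Slc10a2, another gene of gut position, differed between the genotypes, and its arrays stay apart when that pair is left out. Slc10a2, the bile acid transporter of the ileum, had 3.91 to 4.62 in the 6 Stat3-/- tumours, against 5.28 to 7.72 in the 6 Stat3fl/fl tumours, with no overlap and a difference of -2.03 ± 0.24 (SE, adjusted p = 0.000315). Fabp6, the ileal bile acid binding protein and chosen here after its values were seen, was not called over both sexes. It had 4.27 to 4.62 in Stat3-/- tumours. In Stat3fl/fl tumours it had 7.92, 11.10 and 4.78 in males and 4.82, 8.53 and 7.18 in females. Over the whole lists, 2 of 18 small-intestinal-type genes (Slc10a2 and Cyp27a1) and 2 of 21 colon-type genes (Otop2 and B3galt5) were called lower in Stat3-/- tumours and 0 higher. Over all genes tested, 0.422% were called lower and 0.289% higher. With the pair included, the median differences were 0.67 for the small-intestinal-type and -0.47 for the colon-type list. Replicates 9 and 15 had the lowest small-intestinal-type means of the tumours, 8.14 and 8.12. Their colon-type means, 7.28 and 7.175, were the highest. Without them the small-intestinal-type mean log2 value was 9.59 to 10.24 in Stat3fl/fl tumours, against 8.975 to 9.93 in Stat3-/- tumours. The colon-type mean was then 5.945 to 6.23, against 5.60 to 6.50. The differences in genes of gut position run with the same genotype labels as those of Retnlb and Clca1 below, and their part in them was not tested.

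Retnlb was the goblet cell gene that fell with Stat3 deletion in tumours. It had 4.34, 4.26 and 4.73 in male Stat3-/- tumours, against 6.66, 5.95 and 5.56 in male Stat3fl/fl tumours. In female tumours it had 4.24, 5.76 and 3.71 in Stat3-/- samples, against 6.95, 6.61 and 6.43 in Stat3fl/fl samples. Within each sex all 3 Stat3-/- tumours lay below all 3 Stat3fl/fl tumours, and across the sexes only replicate 17, a female Stat3-/- tumour at 5.76, reached above the lowest Stat3fl/fl tumour, the male at 5.56. Over both sexes Retnlb averaged 4.51 ± 0.69 in Stat3-/- tumours and 6.36 ± 0.51 in Stat3fl/fl tumours (SD, n = 6 each), a difference of -1.85 ± 0.28 (SE) with a 95% confidence interval from -2.44 to -1.26 and an adjusted p of 0.0028. The interval covers the spread between arrays only. Since 4 of the 6 Stat3-/- tumours were at or below the array's 25th percentile, the size of the fold is not settled by these values. It was the only one of the 9 called in the comparison over both sexes, in which 123 of 17316 genes (0.71%) were called, 73 lower (0.422%) and 50 higher (0.289%). Without replicates 9 and 15 the difference was -2.03 and the adjusted p 0.00222. In the sexes taken singly no goblet cell gene was called, against 0.231% of genes in males and 0.104% in females. Retnlb differed by -1.61 ± 0.40 in males (SE, adjusted p = 0.163) and by -2.10 ± 0.40 in females (adjusted p = 0.0573). The male comparison called it once replicate 17 was left out of the fit (adjusted p = 0.0212), and the female comparison did so without replicate 7 (adjusted p = 0.0486), replicate 9 (0.0408) or replicate 17 (0.00119). These were the only calls in 18 fits with 1 replicate left out, 1 in males and 3 in females. In the other fits adjusted p reached 0.598 in males and 0.317 in females. Replicate 17 is a female tumour and replicates 7 and 9 are male. Leaving one out for the other sex kept the difference and changed only the spread shared by all groups and the adjustment.

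**Figure D1:**
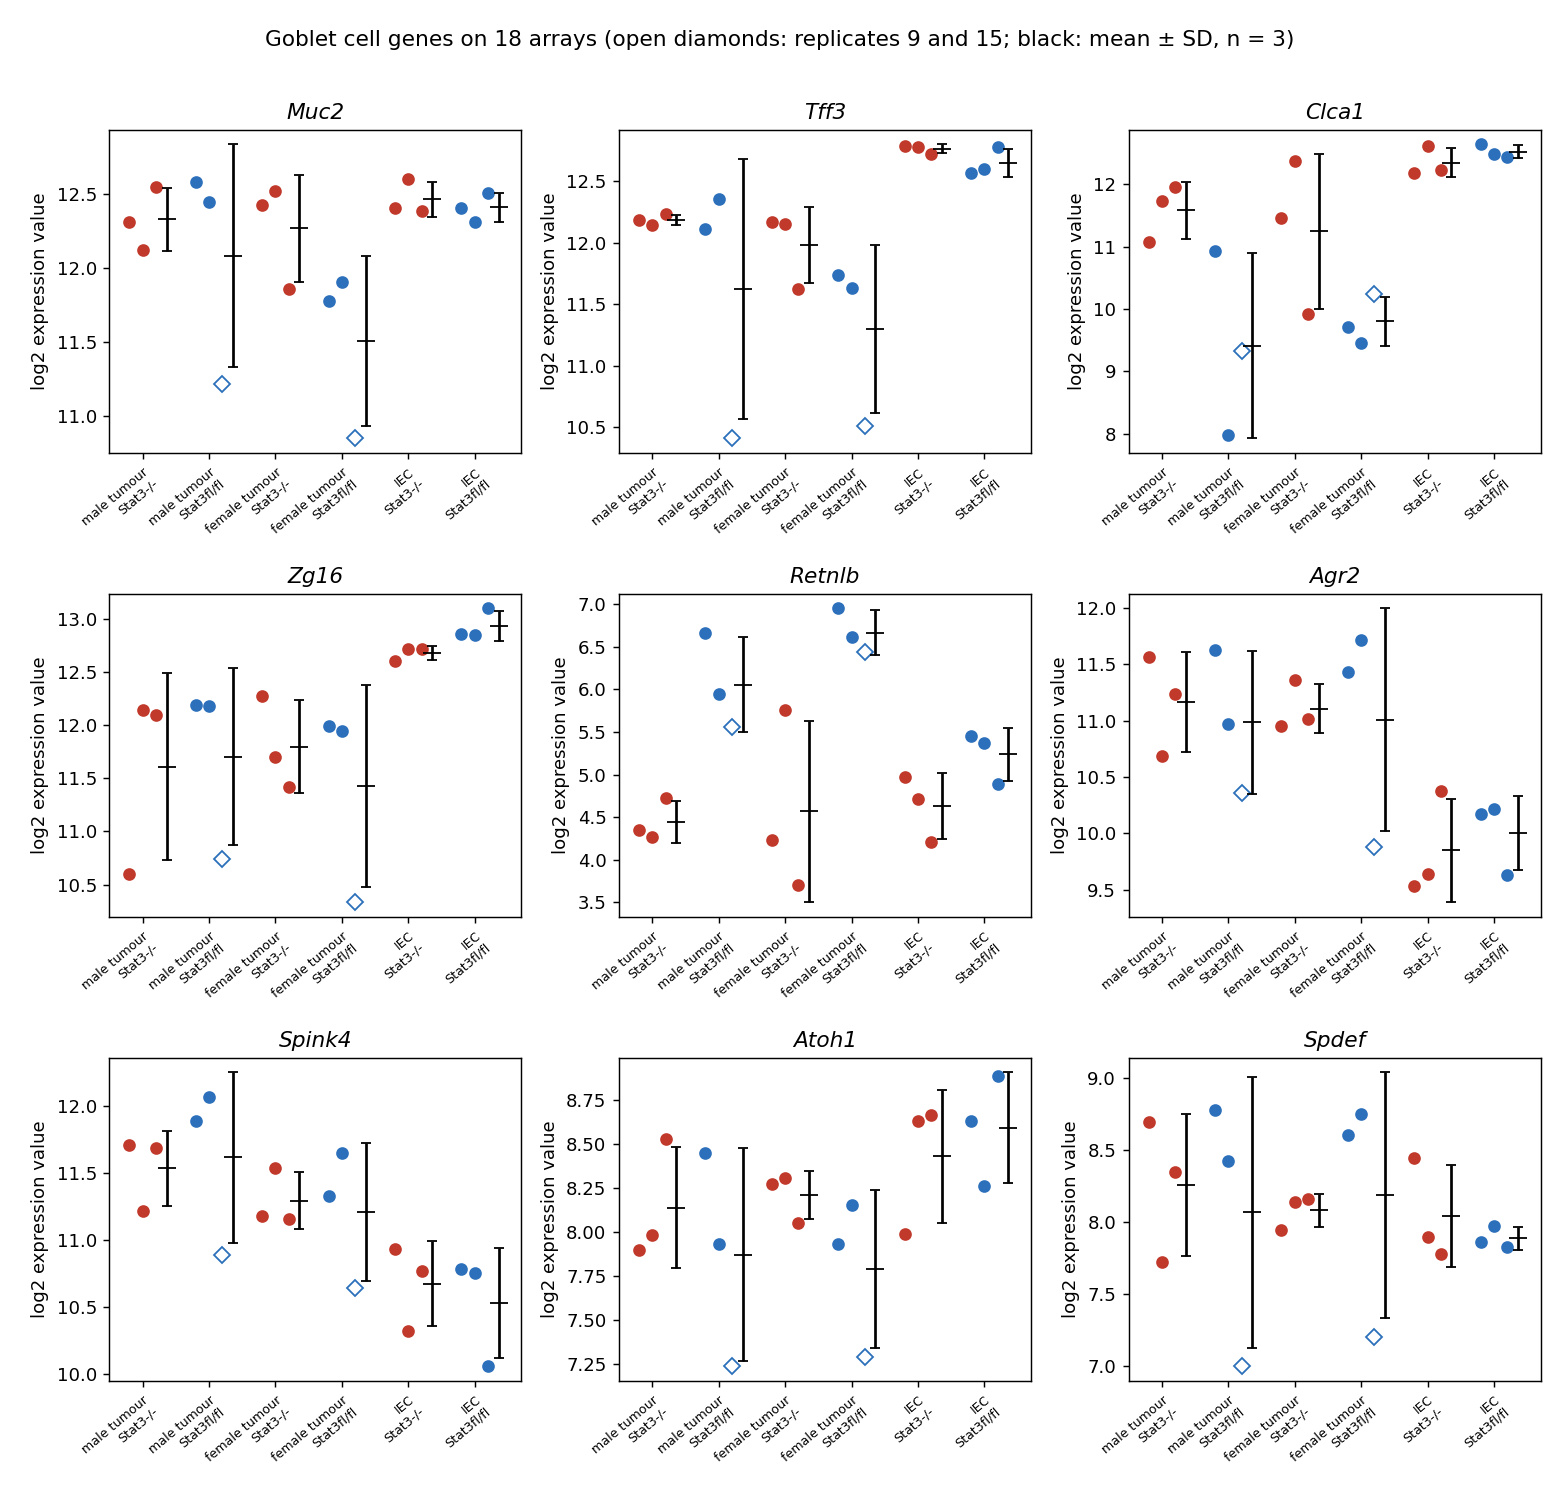
Log2 expression value of each of the 9 measured goblet cell genes (vertical axis, own range per panel) on the 18 arrays by group (horizontal axis, Stat3-/- in red left of Stat3fl/fl in blue). Points are arrays, black marks are the mean ± SD of 3 arrays, and open diamonds are replicates 9 and 15, which lie lowest among the tumours for 6 of the 9 genes; Retnlb lies below its Stat3fl/fl counterparts in both sexes of tumour.

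Clca1 leaned the other way. It had 11.07, 11.73 and 11.95 in male Stat3-/- tumours, against 10.93, 7.97 and 9.32 in male Stat3fl/fl tumours. Female tumours had 11.45, 12.37 and 9.91 with the deletion, against 9.71, 9.46 and 10.24 in Stat3fl/fl samples. In males all 3 Stat3-/- tumours were above all 3 Stat3fl/fl tumours, while in females replicate 18, a Stat3-/- tumour at 9.91, lay below the Stat3fl/fl tumour at 10.24. Over both sexes Clca1 averaged 11.41 ± 0.86 in Stat3-/- tumours and 9.60 ± 0.996 in Stat3fl/fl tumours (SD, n = 6 each). The difference of 1.81 ± 0.42 (SE), 3.51-fold, had a 95% confidence interval from 0.92 to 2.70 and missed the threshold after adjustment over all genes (adjusted p = 0.0573). Leaving out replicate 7, the Stat3fl/fl tumour with the highest Clca1 value, gave 2.19 and an adjusted p of 0.00799. Leaving out replicate 18, the Stat3-/- tumour with the lowest, gave 2.14 and 0.0103. These were the only 2 calls in 18 fits with 1 replicate left out, and adjusted p reached 0.156 in the others. Without replicates 9 and 15 the difference was 1.90 with an adjusted p of 0.0812. By sex it was 2.18 ± 0.59 in males (adjusted p = 0.251, and 0.0361 without replicate 7) and 1.44 ± 0.59 in females (adjusted p = 0.898). The male call came in only 1 of the 18 fits, and adjusted p reached 0.696 in the others.

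The 3 Stat3-/- tumours and the 3 Stat3fl/fl tumours of a sex did not overlap for Retnlb and Clca1 in males and for Retnlb in females. Over all genes tested, 10.1% did not overlap in males, with 8.03% lower in Stat3-/- tumours like Retnlb and 2.06% higher like Clca1. In females 15.6% of genes did not overlap, and 10.4% were lower. In such a background a lack of overlap between 3 and 3 arrays does not set Retnlb apart. Fewer genes, 2.06%, shared the direction of Clca1 in males, and in females Clca1 did overlap.

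The mucin gene Muc2 and the trefoil gene Tff3 had higher means in Stat3-/- tumours without being called. Muc2 had 12.31, 12.12 and 12.55 in male Stat3-/- tumours, against 12.58, 12.44 and 11.21 in male Stat3fl/fl tumours. It had 12.42, 12.52 and 11.85 in female Stat3-/- tumours, against 11.77, 11.90 and 10.85 in female Stat3fl/fl tumours. The low Stat3fl/fl values in both sexes were those of replicates 9 and 15. The difference over both sexes was 0.50 ± 0.23 (SE, adjusted p = 0.386), and 0.12 (adjusted p = 0.879) without the pair. The difference was 0.25 in male tumours (adjusted p = 0.973) and 0.76 ± 0.32 in female tumours (adjusted p = 0.914). Tff3 had 12.14 to 12.23 in male Stat3-/- tumours, against 12.11, 12.35 and 10.41 in male Stat3fl/fl tumours, and 12.17, 12.16 and 11.63 in female Stat3-/- tumours, against 11.74, 11.64 and 10.51 in female Stat3fl/fl tumours. Its difference was 0.62 ± 0.28 over both sexes (adjusted p = 0.372) and 0.12 (adjusted p = 0.846) without replicates 9 and 15.

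The remaining 5 genes had smaller differences between Stat3-/- and Stat3fl/fl tumours. The differences over both sexes were 0.34 ± 0.21 for Atoh1 (SE, adjusted p = 0.571), 0.14 for Zg16 (adjusted p = 0.939), 0.14 for Agr2 (0.931), 0.04 for Spdef (0.983) and 0.00 for Spink4 (0.999). Without replicates 9 and 15 they were 0.06 for Atoh1 and below 0 for the other 4, from -0.30 for Agr2 to -0.47 for Spdef, again with none called. The median difference of the 9 genes was 0.14 in the full set, beside -0.04 over all genes tested. Unadjusted p-values were below 0.05 for 4 of the 9, against 12% of all genes. Of the 9 genes 1 was thus called lower and 0 were called higher, and the called gene and the gene nearest to the threshold, Clca1, differed in sign.

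**Figure D2:**
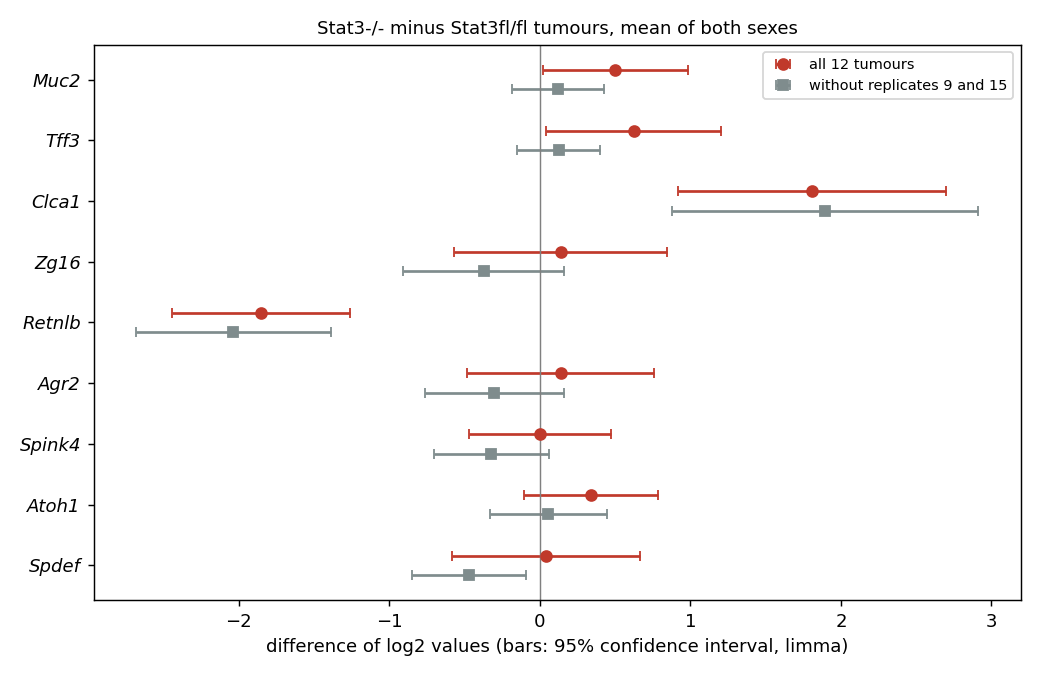
Difference of log2 values, Stat3-/- minus Stat3fl/fl tumours over both sexes, for each of the 9 genes (horizontal axis) with 95% confidence intervals from limma, with all 12 tumours and without replicates 9 and 15. Retnlb lies at -1.85 and Clca1 at 1.81; leaving out the pair brings Muc2 and Tff3 to 0.12.

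The E-box CAGCTG, a sequence that basic helix-loop-helix factors such as ATOH1 can bind, was searched for in the promoters of the goblet cell genes, together with TTCNNNGAA, the core of STAT sites. RefSeq promoter windows on GRCm38.p6, from 250 bases before to 50 after the start of the gene, were at hand for 5 of the 10 genes: Muc2, Fcgbp, Agr2, Atoh1 and Spdef. The rest, Retnlb and Clca1 among them, had no window, so the counts say nothing about them. TTCNNNGAA was in 0 of the 5 windows and in 8.3% of 32851 promoters of the same length. CAGCTG was in 2 of the 5 and in 16.3% of all promoters. Both motifs read the same on either strand, so each match was counted once. The pair of windows with a match are shown because they belong to the mucin that fills the granule and to the protein linked to it. Capitals mark the E-box, which starts 112 bases before the start of Muc2 at chr7:141690216-141690245 (plus strand) and 208 bases before that of Fcgbp at chr7:28071016-28071045 (plus strand).
Muc2: atggagcccccaCAGCTGttttcctgataa
Fcgbp: gggtgtagccacCAGCTGctctcacaccca
A match is a description of these letters and does not show that a factor binds there.

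In epithelial cells no goblet cell gene was called with Stat3 deletion, and 4 of 17316 genes (0.0231%) were called at all, each of them lower. The differences of the 9 genes ranged from -0.60 ± 0.40 (SE) for Retnlb (adjusted p = 0.75) to 0.15, with a median of -0.16 beside 0.00 over all genes, and 0 of the 9 had an unadjusted p below 0.05, against 6.8% of all genes. Retnlb had 4.98, 4.72 and 4.21 in Stat3-/- IEC, against 5.45, 5.38 and 4.88 in Stat3fl/fl IEC, so the groups overlapped. Zg16 was the gene whose arrays did not overlap, with 12.60, 12.72 and 12.72 in Stat3-/- IEC, against 12.86, 12.85 and 13.10 in Stat3fl/fl IEC. Its difference was -0.26 (adjusted p = 0.921), and 14.1% of all genes did not overlap in this comparison, with 7.81% of all genes lower in Stat3-/- IEC like Zg16. Clca1 differed by -0.18 (adjusted p = 0.964). The summed level of 19 tested markers of T cells, NK cells and intraepithelial lymphocytes, given as their mean log2 value, was 7.03 to 8.39 in Stat3-/- IEC, against 6.39 to 6.83 in Stat3fl/fl IEC, with 0 of 19 called, and their part in these values was not tested.

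The Stat3 effect was also compared directly between tissues and between sexes. The effect in tumours minus that in IEC was 1.99 ± 0.73 (SE) for Clca1 and -1.25 ± 0.48 for Retnlb, both with an adjusted p of 0.503, and none of the 9 genes was called, against 0.0116% of all genes (2 of 17316). The unadjusted p was below 0.05 for 2 of the 9 genes and for 9.38% of all genes. The effect in female minus that in male tumours was -0.49 ± 0.56 for Retnlb and -0.73 ± 0.84 for Clca1, each with an adjusted p of 1. For the sexes 0% of genes were called in limma, although 162 (0.936%) had an unadjusted p below 0.05, and 0 of the 9 goblet cell genes were among these. A difference of the deletion's effect between tissues or sexes was thus not shown for any of the 9.

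Tumours differed from epithelial cells in both directions across the goblet cell genes. In Stat3fl/fl mice 3 genes were called higher and 4 lower in tumours than in IEC, of 9. Across all genes 65.7% were called in this comparison, 30.4% higher and 35.3% lower, so 7 of 9 is close to the background. The median difference of the 9 was -0.61, beside -0.08 over all genes. In Stat3-/- mice 2 genes were called higher and 1 lower, against 66.5% of all genes called, 30.3% higher and 36.2% lower, with a median of -0.17 for the 9 and -0.07 for all genes. Both comparisons use the same tumours as the comparison of genotypes, and whether the goblet cell genes differ between them is what the tissue test above asked, in which none was called.

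The granule products that lie beside Muc2 were lower in Stat3fl/fl tumours. Clca1 averaged 9.60 in Stat3fl/fl tumours and 12.52 in Stat3fl/fl IEC, a difference of -2.92 ± 0.51 (SE), 7.57-fold lower (adjusted p = 0.000197). All 6 tumours lay below all 3 IEC samples, whose values were 12.64, 12.49 and 12.44. Zg16 differed by -1.37 ± 0.41 (adjusted p = 0.0084) and Tff3 by -1.19 ± 0.34 (adjusted p = 0.0062). For both genes the tumours and the IEC did not overlap: Tff3 had 10.41 to 12.35 in the tumours, against 12.57 to 12.78 in the IEC, and Zg16 had 10.33 to 12.19, against 12.85 to 13.10. Over all genes 51.1% did not overlap in this comparison, 24.8% higher and 26.3% lower in tumours. Muc2 differed by -0.61 ± 0.28 and was not called (adjusted p = 0.0614). Without replicates 9 and 15 the differences were -3.01 for Clca1, -0.86 for Zg16 and -0.69 for Tff3, all still called, and -0.23 for Muc2 (adjusted p = 0.25). Muc2 was called lower in 4 of the 25 alternative settings: after quantile normalisation (-0.78, adjusted p = 0.0249), and without replicate 7 (adjusted p = 0.029), replicate 8 (0.0373) or replicate 14 (0.0397).

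In Stat3-/- mice the same 3 products were lower in mean, but only Zg16 was called. It averaged 11.70 ± 0.63 in Stat3-/- tumours (SD, n = 6) and 12.68 ± 0.07 in Stat3-/- IEC (SD, n = 3), a difference of -0.97 ± 0.41 (SE, adjusted p = 0.0456). The call is close to its threshold and was lost in 9 of the 25 alternative settings, those without replicate 1, 2, 3, 4, 5, 6, 10, 17 or 18, with adjusted p-values from 0.0531 to 0.102. Replicates 1, 2 and 3 are Stat3fl/fl IEC, so without them only the spread shared by all groups and the adjustment changed, not the difference. Tff3 differed by -0.68 ± 0.34 (adjusted p = 0.0845), although all 6 tumours, at 11.63 to 12.23, lay below all 3 IEC samples, at 12.73 to 12.79, and it was called in 5 of the 25 alternative settings. These were a fit to only the groups compared (adjusted p = 0.00317), array weights (0.0139), quantile normalisation (0.0412), without replicate 9 (0.0127) and without replicates 9 and 15 (0.000775). Replicates 9 and 15 are Stat3fl/fl tumours, so leaving them out kept the Tff3 difference at -0.68. Clca1 differed by -0.93 ± 0.51 (adjusted p = 0.119), and replicate 17, a Stat3-/- tumour at 12.37, reached the IEC range of 12.19 to 12.61. Without replicate 17 Clca1 was called at -1.21 (adjusted p = 0.0401), its only call in the 25 alternative settings. Muc2 differed by -0.17 (SE 0.28) and was not called. In Stat3-/- mice 55.9% of all genes did not overlap between tumours and IEC, 27.1% higher and 28.8% lower in tumours.

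Agr2 and Spink4 were higher in tumours of both genotypes. Agr2 had 10.69 to 11.57 in Stat3-/- tumours, against 9.53, 9.64 and 10.38 in Stat3-/- IEC, with a difference of 1.29 ± 0.36 (SE, adjusted p = 0.0051). In Stat3fl/fl mice it had 9.88 to 11.72 in tumours, against 10.17, 10.22 and 9.63 in IEC, with a difference of 0.99 ± 0.36 (adjusted p = 0.023). The only Stat3fl/fl tumour of the 6 within the IEC range was replicate 15. Spink4 had 11.16 to 11.71 in Stat3-/- tumours, against 10.32 to 10.93 in Stat3-/- IEC, a difference of 0.74 ± 0.27 (adjusted p = 0.0249). It had 10.64 to 12.07 in Stat3fl/fl tumours, against 10.06 to 10.78 in Stat3fl/fl IEC, a difference of 0.88 ± 0.27 (adjusted p = 0.0104). Without replicates 9 and 15 the Stat3fl/fl differences were 1.43 for Agr2 and 1.20 for Spink4. After quantile normalisation neither Agr2 (adjusted p = 0.0529) nor Spink4 (0.0668) was called in Stat3fl/fl mice, nor Spink4 in Stat3-/- mice (0.156), with the directions kept. Agr2 also missed the threshold in Stat3fl/fl mice without replicate 7 (0.0521), without replicate 14 (0.0519) and in a fit to only the groups compared (0.0573).

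**Figure D3:**
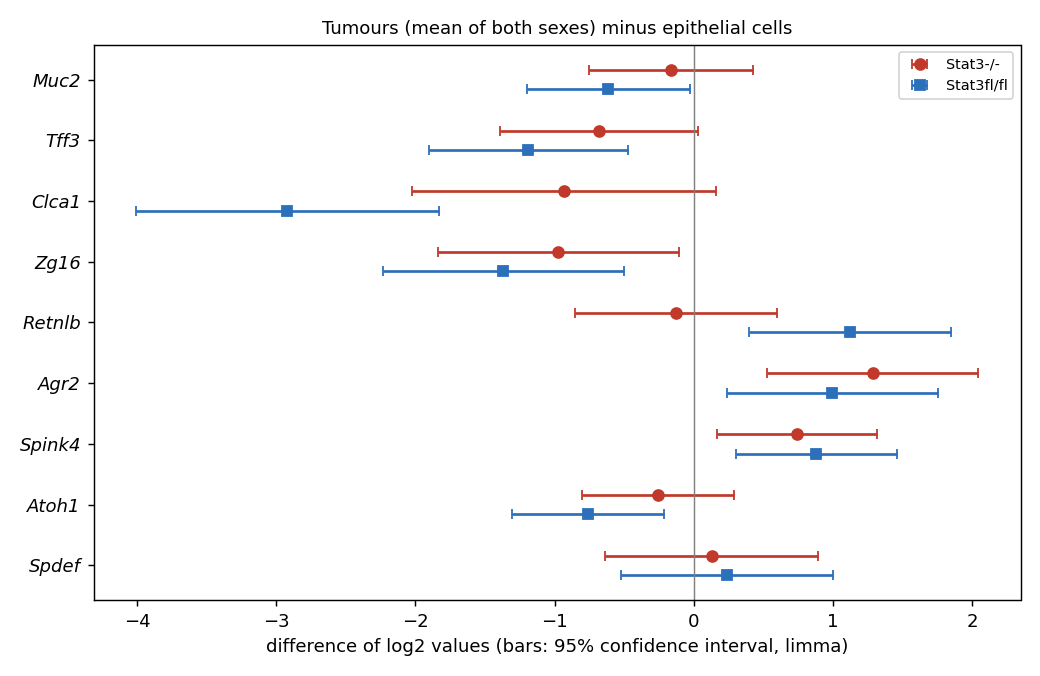
Difference of log2 values, tumours of both sexes minus epithelial cells, for each of the 9 genes (horizontal axis) with 95% confidence intervals from limma, Stat3-/- above Stat3fl/fl. Clca1 lies at -2.92 in Stat3fl/fl mice; Agr2 and Spink4 lie to the right of 0 in both genotypes, and Retnlb does so in Stat3fl/fl mice, at 1.12.

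Retnlb was called higher in tumours than in IEC of Stat3fl/fl mice and was not called in Stat3-/- mice. It had 5.56 to 6.95 in Stat3fl/fl tumours, against 5.45, 5.38 and 4.88 in Stat3fl/fl IEC, with no overlap and a difference of 1.12 ± 0.34 (SE, adjusted p = 0.00959). In Stat3-/- tumours it had 3.71 to 5.76, against 4.21 to 4.98 in Stat3-/- IEC, a difference of -0.13 ± 0.34 (adjusted p = 0.75). Of these arrays, 2 of 3 tumours in each sex and 1 of 3 IEC samples were at or below the array's 25th percentile. Values so near background limit what the Stat3-/- difference can show. The direct test of the gap between the genotypes is the tissue test above, which did not pass.

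Of the lineage factors only Atoh1 was called with all arrays included, and only in Stat3fl/fl mice. Atoh1, the switch to the secretory lineage, had 7.24 to 8.45 in Stat3fl/fl tumours, against 8.26 to 8.89 in Stat3fl/fl IEC, with a difference of -0.76 ± 0.26 (SE, adjusted p = 0.0166). The lowest tumour values, 7.24 and 7.29, were replicates 9 and 15, and without them the difference was -0.48 and no longer called (adjusted p = 0.0694). In Stat3-/- mice Atoh1 had 7.90 to 8.53 in tumours, against 7.99 to 8.67 in IEC, a difference of -0.26. Spdef, the maturation factor, had 7.0 to 8.77 in Stat3fl/fl tumours, against 7.82 to 7.98 in Stat3fl/fl IEC, a difference of 0.24 that was not called (adjusted p = 0.571). Its 4 other Stat3fl/fl tumours were at 8.42 to 8.77, and without replicates 9 and 15 the difference was 0.75 and was called (adjusted p = 0.0076). In Stat3-/- mice it differed by 0.13.

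Leaving out replicate 3, a Stat3fl/fl IEC sample, brought the Stat3fl/fl count of called goblet cell genes to 3 of 9: Agr2 (adjusted p = 0.113), Spink4 (0.0821), Atoh1 (0.0932) and Retnlb (0.0592) were then not called. Clca1, Tff3 and Zg16 were called in all 25 alternative settings. Leaving out replicate 5, a Stat3-/- IEC sample, brought the Stat3-/- count to 1 of 9, with Spink4 at an adjusted p of 0.128 and Zg16 at 0.101. The gene left was Agr2, which was called in all 25. Over all genes, the calls in Stat3-/- mice went from 11514 to 11014 without replicate 5.

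Tumours and epithelial cells also differ in the cells they hold, and in bulk RNA fewer goblet cells and less RNA per goblet cell cannot be told apart. The counts of called genes in this and the next paragraphs stand against the shares over all genes, which were 30.3% higher and 36.2% lower in Stat3-/- tumours than in IEC and 30.4% higher and 35.3% lower in Stat3fl/fl tumours. Of 16 fibroblast and matrix genes, 14 were called higher in Stat3-/- tumours than in IEC and 15 in Stat3fl/fl tumours, with 1 called lower in each. Their mean log2 value was 8.90 to 10.37 in Stat3-/- tumours, against 6.61 to 6.88 in Stat3-/- IEC, and 9.08 to 9.78 in Stat3fl/fl tumours, against 6.59 to 6.95 in Stat3fl/fl IEC. Of 21 markers of absorptive enterocytes, 12 were called lower in Stat3-/- tumours and 21 in Stat3fl/fl tumours, with median differences of -1.48 in Stat3-/- mice and -2.49 in Stat3fl/fl mice. Their mean log2 value was 9.64 to 11.14 in Stat3-/- tumours, against 11.90 to 12.18 in Stat3-/- IEC, and 8.14 to 10.69 in Stat3fl/fl tumours, against 12.20 to 12.47 in Stat3fl/fl IEC. Replicates 9 and 15 had the lowest of these tumour values, 8.38 and 8.14. The other Stat3fl/fl tumours had 10.18 to 10.69, within the range of the Stat3-/- tumours. The part of these shifts in the goblet cell values was not tested.

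Markers of other secretory lineages were counted in the same way. Of 22 enteroendocrine markers 19 were called lower in tumours of each genotype and 1 higher. Of 10 Paneth cell markers 5 were called higher in tumours of each genotype, with 0 lower in Stat3-/- mice and 1 lower in Stat3fl/fl mice, so the Paneth list had no more calls than the 66.5% of all genes called in Stat3-/- mice and the 65.7% in Stat3fl/fl mice. Markers of crypt-base stem cells were higher for 12 of 14 in Stat3-/- mice and for 13 of 14 in Stat3fl/fl mice.

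Further secreted products of goblet cells were called no more often than genes at large. Of 18 tested, 5 were called higher and 6 lower in Stat3-/- tumours than in IEC, with a median of -0.34. In Stat3fl/fl mice 5 were higher and 4 lower, with a median of 0.01. Over all genes 66.5% were called in Stat3-/- mice and 65.7% in Stat3fl/fl mice. The gastric-type mucin Muc6 and the gastric trefoil peptide Tff2 rose in both, Muc6 by 3.02 in Stat3-/- mice and 4.30 in Stat3fl/fl mice and Tff2 by 4.02 in Stat3-/- mice and 3.45 in Stat3fl/fl mice, with each call present in all 25 alternative settings. The membrane mucin Muc3 fell by 1.75 in Stat3-/- mice and by 2.04 in Stat3fl/fl mice. The antimicrobial ribonuclease Ang4, made by Paneth and goblet cells, fell by 1.75 in Stat3fl/fl mice. Between Stat3-/- and Stat3fl/fl tumours, where 0.71% of all genes were called, only Pla2g10, a secreted phospholipase, was called among the 18, at -0.82 (adjusted p = 0.0085).

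Genes that build mucin sugars and assemble mucus were called about as often as all genes, of which 66.5% were called in Stat3-/- mice and 65.7% in Stat3fl/fl mice. Of 32 tested, 9 were called higher and 10 lower in Stat3-/- tumours than in IEC, and 7 higher and 14 lower in Stat3fl/fl tumours, with medians of 0.01 in Stat3-/- mice and -0.45 in Stat3fl/fl mice. Galnt3, which starts O-glycan chains, rose by 2.11 in Stat3-/- mice and 1.5 in Stat3fl/fl mice. C1galt1, which makes the core 1 structure, rose by 1.66 in Stat3-/- mice and by 1.05 in Stat3fl/fl mice. The secretor fucosyltransferase Fut2 rose by 1.48 in Stat3-/- mice and by 1.80 in Stat3fl/fl mice. B3gnt6, which makes the core 3 structure, fell by 1.02 in Stat3-/- mice and by 0.75 in Stat3fl/fl mice, and the sialyltransferase St3gal4 fell by 1.44 in Stat3-/- mice and by 2.54 in Stat3fl/fl mice. The St3gal4 call in Stat3-/- mice was lost without replicate 5 (adjusted p = 0.0539). None of the 32 was called between Stat3-/- and Stat3fl/fl tumours, where 0.71% of all genes were called. The median difference of the 32 was 0.19 there.

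Of 29 genes of the endoplasmic reticulum and secretion machinery of goblet cells, 14 were called higher and 8 lower in Stat3-/- tumours, with a median of 0.45, and 12 higher and 10 lower in Stat3fl/fl tumours, with a median of 0.08. Over all genes 30.3% were higher and 36.2% lower in Stat3-/- mice, and 30.4% higher and 35.3% lower in Stat3fl/fl mice. Txndc5, a protein disulphide isomerase like Agr2, rose by 1.44 in Stat3-/- mice and 1.37 in Stat3fl/fl mice, and the stress transcription factor Creb3l1 by 1.33 in Stat3-/- mice and 1.53 in Stat3fl/fl mice. The actin-severing Scin fell by 1.89 in Stat3-/- mice and by 3.25 in Stat3fl/fl mice, and the gut calpain Capn9 by 1.20 in Stat3-/- mice and by 1.63 in Stat3fl/fl mice. None of the 29 was called between the tumours of the 2 genotypes, where 0.71% of all genes were called. In IEC Kdelr3, which retrieves escaped endoplasmic reticulum proteins, was called at -1.52 with Stat3 deletion (adjusted p = 0.0381), and the call was kept in 12 of 25 alternative settings, being lost without any 1 of the 6 IEC samples among others.

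Of 34 Notch pathway genes and regulators of the secretory lineage, 12 were called higher and 11 lower in Stat3-/- tumours than in IEC, and 14 higher and 10 lower in Stat3fl/fl tumours. These counts are near the background of 66.5% of all genes called in Stat3-/- mice and 65.7% in Stat3fl/fl mice. The Notch target Hes1, which represses Atoh1, rose by 1.17 in Stat3-/- mice and by 1.16 in Stat3fl/fl mice. The Notch ligand gene Dll1 fell by 0.90 in Stat3-/- mice and by 1.27 in Stat3fl/fl mice. Klf4, a factor needed for goblet cell maturation in the mouse colon, fell by 1.59 in Stat3-/- mice and by 1.69 in Stat3fl/fl mice. Sox9, a factor of crypt-base and Paneth cells, rose by 2.11 in Stat3-/- mice and by 2.32 in Stat3fl/fl mice, and Foxa1, a forkhead factor of the gut epithelium, by 1.16 in Stat3-/- mice and by 1.71 in Stat3fl/fl mice. Between Stat3-/- and Stat3fl/fl tumours only Id1, an inhibitor of basic helix-loop-helix factors, was called, at -0.62 (adjusted p = 0.0473), and it was called in 6 of 25 alternative settings. Of 13 genes of the type 2 cytokine pathway, which acts on Retnlb and Clca1 in the mouse gut, 0 were called between the tumours of the 2 genotypes, with a median difference of 0.04. Only 0.71% of all genes were called in that comparison, so 0 of 13 says little about this pathway.

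Within the 12 tumours a mean profile of the 9 genes was taken, as the mean of their values after each gene was centred on its own mean. Replicate 9 stood at -0.81 and replicate 15 at -0.74, replicate 18 followed at -0.35, and the other 9 tumours were at -0.00 to 0.58. The genes differed in how close they lay to that mean profile. The root mean square difference over the 12 tumours was lowest for Atoh1, at 0.167, and highest for Clca1 and Retnlb, at 1.13 and 1.11. Zg16 followed at 0.4575. A gene with no change over the tumours would lie nearer than these genes, at 0.413, so the profile is not common to all 9. The members contribute to the mean, so these distances describe spread among them only.

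Outside the 10 genes, those with the nearest profile over the 12 tumours, of 16267 compared, were Tpsg1 at a root mean square difference of 0.116, Atp8a2 at 0.129, Gmds at 0.144, Galnt10 at 0.153, Kbtbd11 at 0.158 and Hnf4a at 0.159. A gene with no change over the tumours would stand at 0.413. Tpsg1 is a serine protease, Atp8a2 a phospholipid flippase, Gmds an enzyme of GDP-fucose synthesis, Galnt10 a transferase that starts O-glycans and Hnf4a a nuclear receptor of gut epithelium. All 6 had replicates 9 and 15 below the other 10 tumours, so the likeness rests largely on that pair of arrays.

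**Figure D4:**
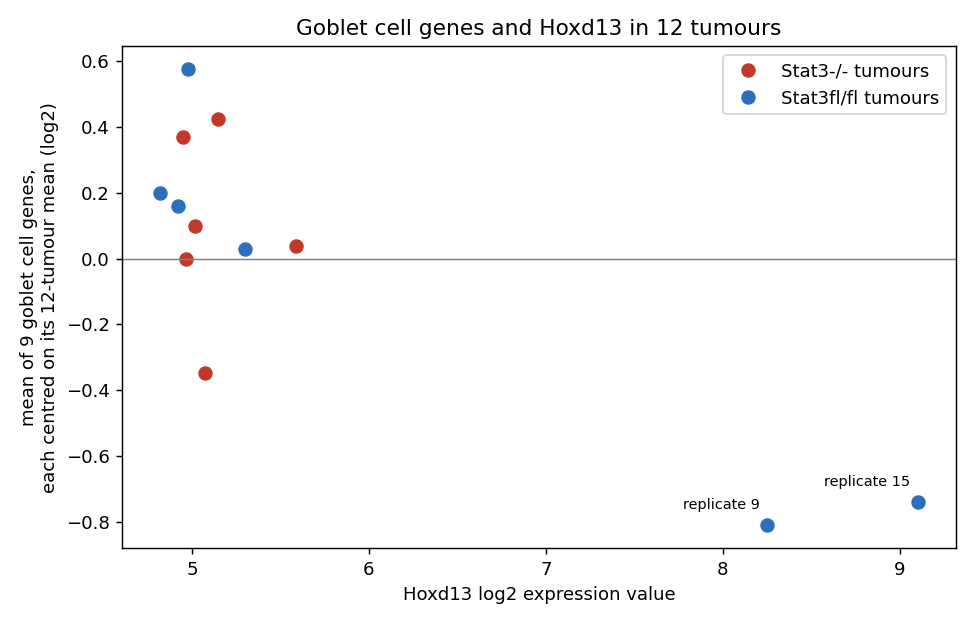
Mean centred log2 value of the 9 goblet cell genes against the log2 value of Hoxd13 in the 12 tumours, with replicates 9 and 15 marked. The pair with Hoxd13 at 8.25 and 9.10 has the lowest goblet profile, -0.81 and -0.74, while the other 10 tumours have Hoxd13 at 4.82 to 5.59 and form a separate cluster, so no correlation is given.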

How the data were processed

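The deposited values are log2 expression values of 35556 probe sets on 18 arrays. Per the submitters' processing notes they were made with RMA, a method of background correction, quantile normalisation and summary of probes to probe sets. Its quantile step is meant to even out global shifts, and the values of dim genes stay close to background. Some shift was left: array medians ran from 5.88 to 6.07. The 25th percentile was 4.51 to 4.57 on IEC arrays, against 4.30 to 4.41 on tumour arrays. The sources used here name no genome build or scan date, and the number of arrays limits the precision. Probe sets with 1 symbol (21789; 1621 had several, 12146 were unnamed) gave 19938 genes, each by its probe set with the highest mean. Genes above the array's 25th percentile in at least 3 arrays were tested (17316).

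A mean per group was fitted to all 18 arrays in limma 3.58.1 (R 4.3.3) with an intensity trend, and two-sided p-values were adjusted by Benjamini-Hochberg within each of 8 comparisons. Differences are Stat3-/- minus Stat3fl/fl or tumours minus epithelial cells. The code was checked on simulated data. The closing section gives the alternatives. Replicate numbers are those of the sample titles. The 10 genes, the gene lists and the rules for naming genes were chosen with earlier results of these data known. Genes named are the 10, Stat3, list members that passed, a few gut position genes and the 6 most alike in profile.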

Additional observations from a re-analysis of the deposited data

How the results depend on the processing

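The alternatives were a fit to only the groups compared, array weights, quantile normalisation, no intensity trend, no filter, the mean over probe sets, each replicate left out in turn, and replicates 9 and 15 left out together. Retnlb kept its call between Stat3-/- and Stat3fl/fl tumours in all 25, from -2.15 to -1.64. The count of called goblet cell genes in that comparison was 2 with array weights and 2 with quantile normalisation, Clca1 being the gene added, and 1 to 2 over the left-out replicates. It was 0 to 1 in males and 0 to 1 in females over the left-out replicates, and 2 in females with array weights. Clca1 was the gene added to Retnlb there. Tumours against epithelial cells gave 3 to 8 in Stat3fl/fl mice and 1 to 4 in Stat3-/- mice over the left-out replicates. The tissue difference of the Stat3 effect gave 1 call with array weights, Clca1 at 2.11 (adjusted p = 0.0205). Over all genes, that difference gave 1038 calls with array weights, against 2 without the weights. In such a background the call does not set Clca1 apart.

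Sign changes occurred among differences that were called in neither setting. Between male Stat3-/- and Stat3fl/fl tumours Muc2 was at -0.19 and Tff3 at -0.045 without replicates 9 and 15, with ranges of -0.19 to 0.50 and -0.045 to 0.93 over the left-out replicates. Over both sexes Agr2, Spink4 and Spdef were at -0.14, -0.033 and -0.17 with array weights. Without replicates 9 and 15 Agr2, Spink4, Zg16 and Spdef were at -0.30, -0.32, -0.37 and -0.47. Over the left-out replicates they ranged from -0.14 to 0.32 for Agr2, -0.18 to 0.12 for Spink4, -0.13 to 0.39 for Zg16 and -0.22 to 0.22 for Spdef. Retnlb in Stat3-/- tumours against epithelial cells was at 0.30 with array weights, 0.066 with quantile normalisation and -0.43 to 0.086 over the left-out replicates. Spdef there was at -0.15 with quantile normalisation and -0.0023 to 0.33 over the left-out replicates. The sex difference of Clca1 was 0.067 with array weights. No paired analysis was possible because the replicate numbers are unique over the series. Over all genes, the tumour comparison of both sexes gave 43 to 1414 calls over the alternatives, the male 2 to 117, the female 0 to 745 and the epithelial cells 4 to 1134 over settings other than left-out replicates. Over the left-out replicates these counts were 64 (without 16) to 265 (without 18) for both sexes, 13 (without 11) to 84 (without 9) in males, 10 (without 13) to 30 (without 18) in females and 2 to 4 in epithelial cells, and the tissue difference gave 1 to 10. The cause was not tested.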
